A study of Mus musculus with 8 samples.

Results

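The 10 genes described here, *Fasn*, *Acaca*, *Acacb*, *Acly*, *Scd1*, *Scd2*, *Me1*, *Srebf1*, *Mlxipl* and *Thrsp*, encode enzymes and regulators of de novo lipogenesis. They were listed by name for that function, but with earlier results of these data known. They are 10 of the 44674 genes quantified in brown adipose tissue (BAT), and all 10 were among the 14489 genes that had enough counts to be tested. BAT came from 4 control mice and 4 Ox1RΔSERT mice, killed by decapitation after a hyperinsulinemic-euglycemic clamp. During the clamp the mice received insulin at a constant rate, with glucose at whatever rate held glycaemia steady. The comparison addresses what the loss of orexin receptor 1 (Ox1R, gene *Hcrtr1*) from serotonergic neurons does to BAT in obesity.

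Ox1RΔSERT mice were Ox1R fl/fl and carried the Sert-Cre transgene (tg/wt), in which Cre recombinase is driven by *Slc6a4*, the gene of the serotonin transporter SERT. Control mice were littermates of the genotype Ox1R fl/fl, Sert-Cre wt/wt, so both groups carried the floxed Ox1R alleles and only Ox1RΔSERT mice carried Cre. An effect of the transgene itself and an effect of the deletion therefore cannot be told apart in these groups, and the study also describes Sert-Cre activity in parts of the cortex and thalamus. All 8 mice were male, received a high-fat diet (HFD) from week 4 to week 18, were fasted for 4 h and had received insulin, and no unclamped or chow-fed mice were sequenced. *Hcrtr1* was at 5 counts or fewer in every BAT library, so the deletion cannot be read from this tissue.

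De novo lipogenesis builds fatty acids from carbohydrate. Acetyl-CoA is released from citrate in the cytosol, carboxylated to malonyl-CoA, condensed to palmitate with NADPH as the reductant, and then desaturated. Insulin and glucose induce the pathway in liver and adipose tissue through the transcription factors SREBP-1c and ChREBP, and brown fat is known for high expression of these genes, since it both stores and burns fatty acids.

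Each library held 35852708 to 50063339 estimated counts, so 3 counts correspond to 0.0592 to 0.0951 CPM, which is counts scaled by TMM to a common library size. The mitochondrial genome took 40.0% to 46.8% of the counts in control mice and 33.6% to 44.6% in Ox1RΔSERT mice. The first principal component held 53.6% of the variance and set Ox1RΔSERT mice 11601 and 11708, at 59.3 and 77.0, apart from the other 6 mice at -44.3 to 7.13. The summed CPM of brown adipocyte markers (*Ucp1*, *Cidea*, *Dio2*, *Ppargc1a* and *Elovl3*) was 5243 to 7347 in control mice and 3581 to 5444 in Ox1RΔSERT mice, and that of adipocyte markers was 7552 to 9046 and 5668 to 7790, so the markers of the labelled tissue were abundant in every library. Markers of other cells moved with single libraries: leukocyte markers summed to 230 and 214 CPM in mice 11601 and 11708 against 29.6 to 68.0 in the other 6 mice, hepatocyte markers to 809 CPM in mouse 11708 against at most 55.0 elsewhere, and skeletal muscle markers to 1250 CPM in control mouse 11253 and 1861 CPM in mouse 11708. In bulk tissue, fewer cells of a type and less RNA per cell cannot be told apart.

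On GRCm38, 4 of the 10 genes lie on chromosome 11: *Fasn* (chr11:120805846-120824547, minus strand), *Acly* (chr11:100476353-100528000, minus), *Acaca* (chr11:84129672-84401651, plus) and *Srebf1* (chr11:60199089-60222581, minus). *Scd2* (chr19:44293674-44306864, plus) and *Scd1* (chr19:44394455-44407879, minus) are neighbours on chromosome 19 with 87590 bases between them. *Acacb* (chr5:114146535-114250761, plus) and *Mlxipl* (chr5:135089890-135138382, plus) lie on chromosome 5, *Me1* (chr9:86581371-86695953, minus) on chromosome 9 and *Thrsp* (chr7:97412938-97417730, minus) on chromosome 7. The counts are per gene, so products of different start sites, such as the isoforms of *Srebf1* and *Mlxipl*, were not separated.

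The RefSeq table of promoter windows held 12 windows of 8 of the genes. The 250 bases before a start site are shown for the 3 genes that varied most closely together across the mice, *Fasn*, *Acly* and *Acaca*, and for *Mlxipl*, which encodes ChREBP. Capitals mark matches on either strand to 3 motifs. The CCAAT box, bound by NF-Y, was searched by its own letters. The GC box, bound by Sp1, was searched as GGGCGG. The E-box, bound by USF proteins, was searched as CACGTG. The windows lie on GRCm38.p6 at chr11:120824548-120824797 (minus strand) for *Fasn*, chr11:100528001-100528250 (minus) for *Acly*, chr11:84195188-84195437 (plus) for *Acaca* and chr5:135089640-135089889 (plus) for *Mlxipl*, and that of *Acaca* belongs to a start inside the gene.
Fasn: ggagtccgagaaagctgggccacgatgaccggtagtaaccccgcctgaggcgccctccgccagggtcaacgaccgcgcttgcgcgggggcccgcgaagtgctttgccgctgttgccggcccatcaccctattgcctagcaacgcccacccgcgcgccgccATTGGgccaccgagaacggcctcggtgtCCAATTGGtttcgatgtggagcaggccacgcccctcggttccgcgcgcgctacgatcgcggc
Acly: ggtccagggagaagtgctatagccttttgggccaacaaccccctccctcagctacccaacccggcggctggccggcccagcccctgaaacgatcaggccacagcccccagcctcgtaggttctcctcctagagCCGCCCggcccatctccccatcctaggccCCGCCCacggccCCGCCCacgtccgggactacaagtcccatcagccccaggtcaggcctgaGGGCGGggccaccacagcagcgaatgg
Acaca: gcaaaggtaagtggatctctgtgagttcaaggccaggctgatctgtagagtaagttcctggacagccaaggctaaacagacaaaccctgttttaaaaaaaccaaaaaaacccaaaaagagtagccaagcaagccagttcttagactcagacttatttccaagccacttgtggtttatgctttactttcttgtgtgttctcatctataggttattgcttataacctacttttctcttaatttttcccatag
Mlxipl: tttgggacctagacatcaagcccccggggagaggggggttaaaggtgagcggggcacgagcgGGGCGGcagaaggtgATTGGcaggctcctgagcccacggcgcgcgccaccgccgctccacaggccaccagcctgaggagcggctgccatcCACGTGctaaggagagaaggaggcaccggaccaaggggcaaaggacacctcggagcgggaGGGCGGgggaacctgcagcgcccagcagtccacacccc
The *Fasn* window held 3 matches to CCAAT, of which a pair overlaps on opposite strands as CCAATTGG, the *Acly* window held 4 GC boxes, and the *Acaca* window held no match to these motifs. The *Acaca* window lies inside the gene, whose annotated start is at chr11:84129672, so it does not show whether these motifs occur before that start. Over all 12 windows, CCAAT was found in 7 windows of 6 genes and is present in 33.8% of the 32851 windows of the table, and GGGCGG was found in 5 windows of 4 genes, against 32.7% of the table. CACGTG was found once, in the *Mlxipl* window shown, against 6.02% of the table. A further search for TCACNCCAC, a form of the sterol regulatory element bound by SREBP, gave 1 match in another *Mlxipl* window (chr5:135106641-135106890, plus), against 1.05% of the table. These matches describe letters in the windows and are not measurements of binding.

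Levels of different genes can be set against each other only per length, as TPM, in which counts are divided by transcript length and scaled to the same sum in each mouse. On this scale *Scd1* stood highest of the 10 genes, *Fasn* next and *Thrsp* after it in each of the 8 mice, and together they held 83.0% to 89.4% of the summed TPM of the 10. Mean TPM of *Scd1* was 1138 ± 431 in control mice and 2208 ± 718 in Ox1RΔSERT mice (SD, n = 4 each), that of *Fasn* was 563 ± 240 and 952 ± 329, and that of *Thrsp* was 337 ± 295 and 457 ± 178. *Acacb*, *Acly*, *Me1*, *Acaca* and *Mlxipl* followed, in this order of their control means, from 77.7 ± 8.68 TPM for *Acacb* to 58.0 ± 18.5 TPM for *Mlxipl*. *Acacb* was above *Me1* and *Mlxipl* in all 4 control mice. The control means of *Me1*, *Acaca* and *Mlxipl* lie within each other's SD, that of *Acly* spanned them all with its SD of 68.3 TPM, and the order of the 5 genes differed between mice. *Srebf1*, at 28.2 ± 25.0 TPM in control mice, was next to lowest in each of the 8 mice and *Scd2*, at 4.65 ± 1.86 TPM, was lowest.

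None of the 10 genes passed the test between the groups. With edgeR's quasi-likelihood test and Benjamini-Hochberg adjustment, 0 of the 10 genes and 0 of all 14489 tested genes (0%) had an adjusted p under 0.05. At an unadjusted p under 0.05, edgeR counted 0 of the 10 genes against 15.2% of all tested genes, 10.2% being higher and 4.96% lower in Ox1RΔSERT mice. DESeq2 called 0 of the 10 genes against 265 of 15119 genes with an adjusted p (1.75%), and at an unadjusted p it counted 1 of the 10, *Scd1*, against 10.7%. The values of the groups overlapped for all 10 genes, while they did not overlap for 5.5% of all tested genes (2.69% higher and 2.81% lower in Ox1RΔSERT mice). The log2 fold change, given throughout as Ox1RΔSERT minus control, was above 0 for 9 of the 10 genes against 50.4% of all tested genes, with a median of 0.23 against 0.00. Several of the 10 genes varied together, as shown further on, so the directions of the 10 are not all independent of each other.

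**Figure D1:**
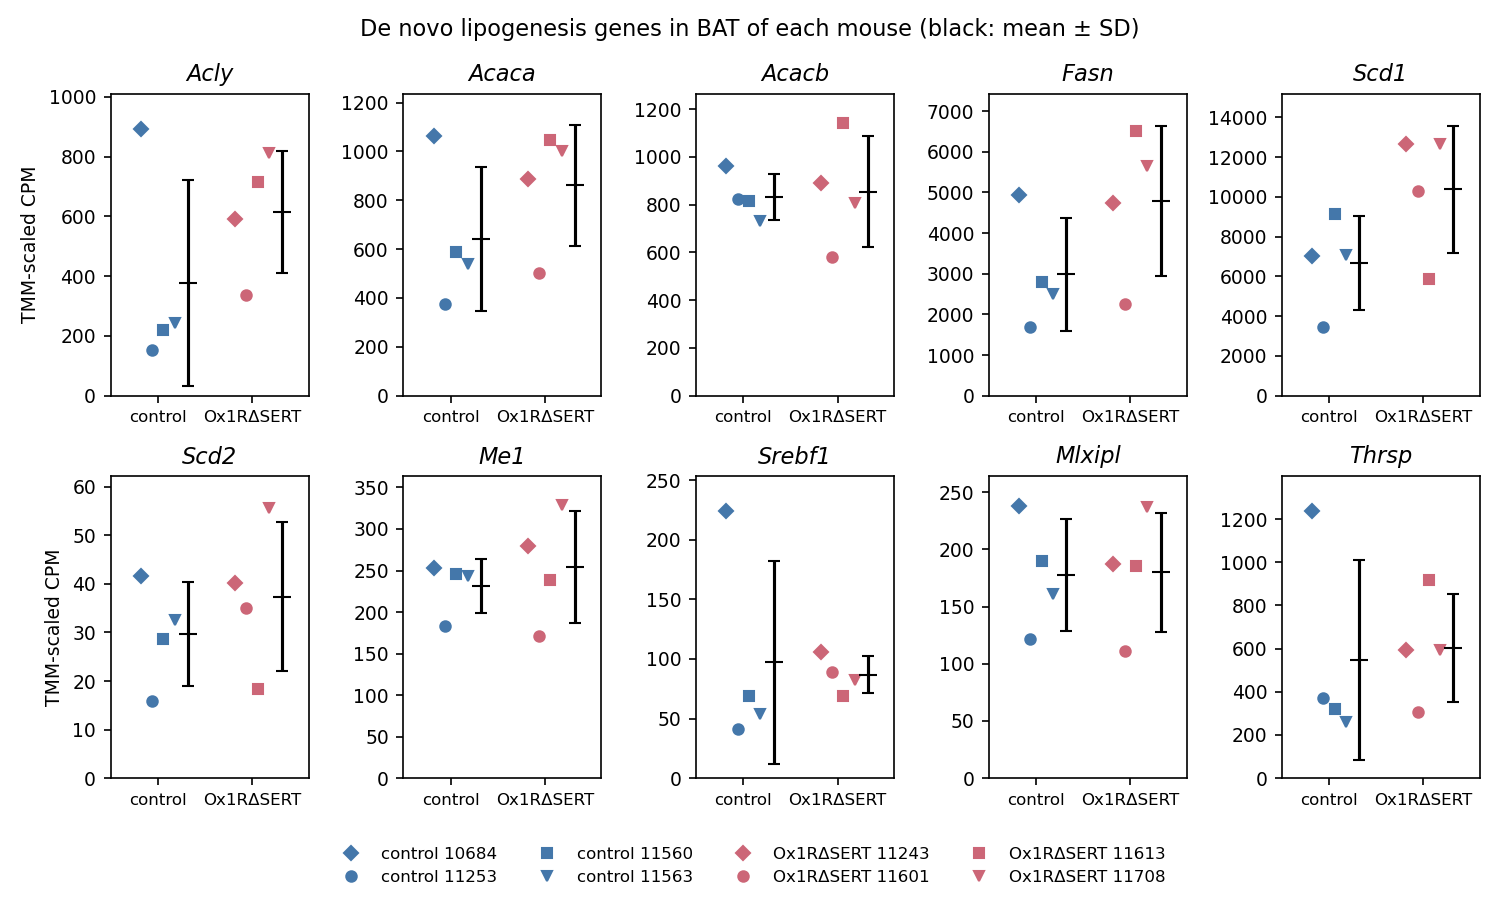
TMM-scaled CPM (linear axis from 0) of each of the 10 genes in 4 control mice (blue) and 4 Ox1RΔSERT mice (red), with 1 symbol per mouse and the mean ± SD of each group in black. The groups overlap in every panel, and control mouse 10684 (blue diamond) is the highest control in 9 of the 10 panels.

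Values of single mice are CPM after TMM scaling and follow the order of control mice 10684, 11253, 11560 and 11563 and Ox1RΔSERT mice 11243, 11601, 11613 and 11708. *Acly* encodes ATP citrate lyase, which releases acetyl-CoA from citrate in the cytosol. It was at 893, 154, 219 and 242 CPM in control mice and 592, 338, 715 and 811 CPM in Ox1RΔSERT mice. All 4 Ox1RΔSERT mice lay above 3 of the control mice and below control mouse 10684. The means were 377 ± 346 and 614 ± 205 CPM, a log2 fold change of 0.70 (SE 0.55, 95% interval -0.54 to 1.95, edgeR adjusted p = 0.535, exact permutation p = 0.286).

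*Acaca* and *Acacb* encode the acetyl-CoA carboxylases ACC1 and ACC2. ACC1 makes the malonyl-CoA used by fatty acid synthase, and ACC2 makes malonyl-CoA at the mitochondrial surface, where it inhibits carnitine palmitoyltransferase 1. *Acaca* was at 1063, 376, 588 and 541 CPM in control mice and 889, 504, 1047 and 1003 CPM in Ox1RΔSERT mice, so 3 of the 4 Ox1RΔSERT mice exceeded every control mouse but 10684. Its log2 fold change was 0.42 (SE 0.34, 95% interval -0.34 to 1.19, edgeR adjusted p = 0.544). *Acacb* was at 962, 825, 817 and 730 CPM in control mice and 891, 580, 1144 and 806 CPM in Ox1RΔSERT mice, and the Ox1RΔSERT mice reached both below and above the control mice. Its log2 fold change was 0.04 with the narrowest interval of the 10 genes (SE 0.20, 95% interval -0.41 to 0.49, edgeR adjusted p = 0.943).

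*Fasn* encodes fatty acid synthase, which condenses malonyl-CoA to palmitate. It was at 4944, 1683, 2793 and 2501 CPM in control mice and 4736, 2243, 6505 and 5658 CPM in Ox1RΔSERT mice. Mice 11613 and 11708 exceeded every control mouse, mouse 11243 lay just under control mouse 10684, and mouse 11601 lay among the lower control mice. The means were 2980 ± 1391 and 4786 ± 1843 CPM, a 1.61-fold ratio and a log2 fold change of 0.68 (SE 0.39, 95% interval -0.21 to 1.58, edgeR adjusted p = 0.416, DESeq2 adjusted p = 0.341, exact permutation p = 0.2).

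*Scd1* and *Scd2* encode stearoyl-CoA desaturases, which place a double bond in palmitate and stearate. They are paralogs, and Salmon divides reads that match more than 1 of them. *Scd1* was at 7029, 3466, 9144 and 7086 CPM in control mice and 12669, 10312, 5876 and 12634 CPM in Ox1RΔSERT mice. In 3 of the 4 Ox1RΔSERT mice the value exceeded every control mouse, while mouse 11613 lay below 3 of them. The means were 6681 ± 2358 and 10373 ± 3194 CPM, a 1.55-fold ratio and a log2 fold change of 0.63 (SE 0.34, 95% interval -0.14 to 1.41), with the lowest p of the 10 genes in edgeR (unadjusted 0.0955, adjusted p = 0.384) and in DESeq2 (unadjusted 0.0467, adjusted p = 0.295). The exact permutation test gave p = 0.143, where the smallest p it can give is 0.0286. *Scd2* was at 41.6, 15.8, 28.7 and 32.6 CPM in control mice and 40.2, 35.1, 18.4 and 55.6 CPM in Ox1RΔSERT mice. Mouse 11613, the highest of all mice for *Fasn*, was the lowest Ox1RΔSERT mouse for both desaturases, and the log2 fold change of *Scd2* was 0.33 (SE 0.36, 95% interval -0.49 to 1.14, edgeR adjusted p = 0.666).

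*Me1* encodes the cytosolic malic enzyme, a source of NADPH for fatty acid synthesis. It was at 254, 183, 246 and 243 CPM in control mice and 279, 171, 238 and 329 CPM in Ox1RΔSERT mice. Ox1RΔSERT mice lay on both sides of the control mice, and the log2 fold change was 0.14 (SE 0.20, 95% interval -0.32 to 0.59, edgeR adjusted p = 0.757).

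Among the regulators, *Srebf1* encodes SREBP-1, *Mlxipl* encodes ChREBP, and *Thrsp* encodes Spot 14, a nuclear protein that rises with lipogenic stimuli. *Srebf1* was at 224, 41.4, 68.8 and 53.9 CPM in control mice and 106, 89.3, 68.9 and 82.3 CPM in Ox1RΔSERT mice. All 4 Ox1RΔSERT mice lay between control mouse 10684 and the other 3 control mice, and the log2 fold change was -0.16 (SE 0.49, 95% interval -1.28 to 0.95, edgeR adjusted p = 0.891). *Mlxipl* was at 238, 122, 190 and 161 CPM in control mice and 187, 111, 185 and 237 CPM in Ox1RΔSERT mice, which covered nearly the same range in both groups (log2 fold change 0.02, SE 0.26, 95% interval -0.57 to 0.61, edgeR adjusted p = 0.976). *Thrsp* was at 1238, 371, 321 and 259 CPM in control mice and 596, 307, 917 and 593 CPM in Ox1RΔSERT mice. Again control mouse 10684 stood above all others and 3 Ox1RΔSERT mice stood above the remaining control mice, with a log2 fold change of 0.14 (SE 0.53, 95% interval -1.05 to 1.33, edgeR adjusted p = 0.914).

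A few exon bases of these genes are shared with other genes, of which the largest share was 235 bases (4.24%) of *Mlxipl* with *Gm43500*, on the opposite strand, and whether quantification used strand is not given in the sources used here. *Srebf1* shared 109 bases with *Rai1*, also on the opposite strand.

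Several lipogenic genes varied more among the 4 control mice than most genes did. The SD of log2 CPM among control mice was 1.11 for *Acly*, 1.07 for *Srebf1*, 1.01 for *Thrsp* and 0.64 for *Fasn*, against a median of 0.21 over all tested genes. For *Acly*, *Srebf1* and *Thrsp* this put 98.1%, 98.0% and 97.6% of tested genes below them. *Acacb* and *Me1* were the exceptions, with SDs of 0.16 and 0.22. From the lowest to the highest control mouse, *Acly* covered a 5.82-fold, *Srebf1* a 5.41-fold, *Thrsp* a 4.77-fold, *Fasn* a 2.94-fold and *Acaca* a 2.83-fold range. These ranges rest on control mouse 10684, and among the other 3 control mice they were 1.57-fold, 1.66-fold, 1.43-fold, 1.66-fold and 1.56-fold. *Scd1* kept its 2.64-fold range without that mouse. In Ox1RΔSERT mice the ranges of *Acly*, *Srebf1*, *Thrsp*, *Fasn* and *Acaca* were 2.40-fold, 1.54-fold, 2.99-fold, 2.90-fold and 2.08-fold.

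The same mice set these extremes in gene after gene. Control mouse 10684 was the highest control for 9 of the 10 genes and the highest of all 8 mice for 5, against 33.6% of all tested genes for which it was the highest control. Control mouse 11253 was the lowest control for 8 of the 10 genes and the lowest of all 8 mice for 6, against 22.0% of all tested genes for which it was the lowest control. Among Ox1RΔSERT mice, 11601 was the lowest for 7 genes, and 11613 and 11708 were each the highest for 4. Control mouse 10684 was also the lowest control for all 5 brown adipocyte markers, by margins that differed. The most abundant of them were close to the other control mice, with *Ucp1* at 3731 CPM against 3806 to 4895 and *Cidea* at 1199 CPM against 1212 to 1289. *Dio2* was at 198 CPM against 818 to 1126, *Ppargc1a* at 34.3 CPM against 103 to 112 and *Elovl3* at 80.2 CPM against 125 to 145. In control mouse 11253 the markers of skeletal muscle stood apart, as given above. The part of these differences in the values of the lipogenic genes was not tested.

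Control mouse 10684 was left out only after its values had been seen, and it was the highest control for 9 of the 10 genes. Leaving it out lowers the control means of those 9 genes by construction. It was the highest control for 33.6% of all tested genes, so the shares over all genes given here are not a like background. The p-values and intervals found without it are a description only. Without this mouse, the differences of several genes were wider. The log2 fold change of *Acly* was then 1.58 (SE 0.31, 95% interval 0.85 to 2.31), that of *Fasn* 1.04 (SE 0.37), that of *Thrsp* 0.92 (SE 0.34), that of *Acaca* 0.78 (SE 0.28) and that of *Srebf1* 0.66 (SE 0.20). These 5 genes had an unadjusted p under 0.05 in edgeR, of 0.00121, 0.0253, 0.0275, 0.0253 and 0.0130, against 15.7% of all genes tested without this mouse, 9.15% being higher in Ox1RΔSERT mice. edgeR still called 0 of the 10 genes and 0 of all genes (0%), with an adjusted p of 0.306 for *Acly*. DESeq2 called *Acly* alone of the 10 (adjusted p = 0.000106), against 2.64% of all genes it could adjust. Without this mouse the groups no longer overlapped for *Acly* and *Srebf1*, both higher in Ox1RΔSERT mice, against 6.93% of all tested genes that did not overlap and were higher. For *Srebf1* the gap was between 68.8 CPM in control mouse 11560 and 68.9 CPM in Ox1RΔSERT mouse 11613. The opposite holds for control mouse 11253, the lowest control. Without it the log2 fold changes of *Fasn*, *Acly*, *Scd1* and *Acaca* were 0.48, 0.43, 0.40 and 0.22, and those of *Srebf1* and *Mlxipl* were -0.43 and -0.14. An unadjusted edgeR p under 0.05 was then found for 0 of the 10 genes, against 2027 of the 14779 genes tested without mouse 11253. The median of the 10 genes was 0.66 without mouse 10684, 0.06 without mouse 11253, 0.36 without mouse 11601 and 0.11 without mouse 11708. *Scd1* was nearly the same without mouse 10684, at 0.66 (SE 0.40). *Scd2* was then at 0.53 in place of 0.33, *Mlxipl* at 0.19 in place of 0.02, *Me1* at 0.18 in place of 0.14 and *Acacb* at 0.11 in place of 0.04, each shift being smaller than the SE.

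**Figure D2:**
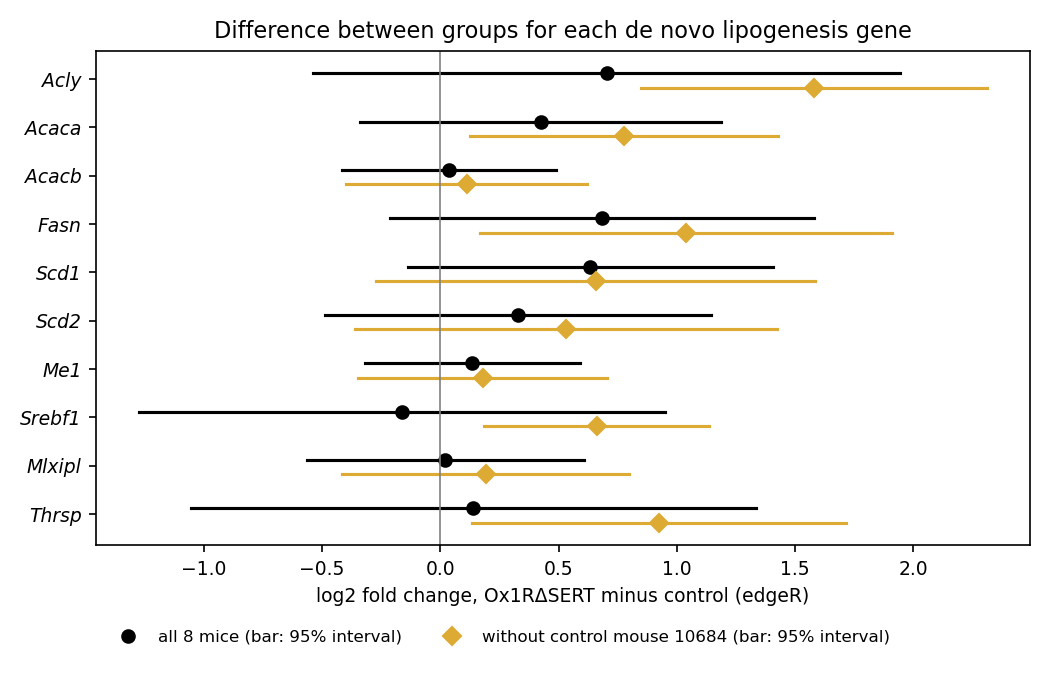
Log2 fold change (Ox1RΔSERT minus control, edgeR) of the 10 genes with 95% intervals, with all 8 mice (black circles) and without control mouse 10684 (yellow diamonds), against a line at 0. With all mice every interval includes 0, and without mouse 10684 those of *Acly*, *Acaca*, *Fasn*, *Srebf1* and *Thrsp* do not. That mouse was left out after its values had been seen and was the highest control for 9 of the 10 genes, so those intervals are a description only.

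Mice 11601 and 11708, which stood apart on the first principal component, did not set the differences of the enzymes in the same way. Without mouse 11708 the log2 fold change of *Fasn* was 0.59, that of *Acly* 0.54 and that of *Scd1* 0.53, while that of *Scd2* was 0.07. Without both mice that of *Scd2* was -0.019. *Fasn*, *Acaca*, *Acly* and *Scd1* had a log2 fold change above 0 under each of the 28 other settings tried. These settings are not independent checks. The threshold of 0.1 leaves the fold change of the main fit as it is, and DESeq2 with mice left out repeats the omissions made in edgeR.

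*Acly*, *Acaca* and *Fasn* varied closely together across the 8 mice, as did the desaturase pair. Pearson's r of log2(CPM + 0.1) was 0.93 to 0.99 for the 3 pairs among *Fasn*, *Acaca* and *Acly*, and 0.90 to 0.99 for deviations from the group means. *Scd1* and *Scd2* followed each other with an r of 0.85, but either of them with *Fasn*, *Acaca* or *Acly* gave only 0.39 to 0.55, and 0.19 to 0.50 for deviations. *Scd2* was at only 0.00282 to 0.00539 of *Scd1* in TPM, and Salmon divides reads that match both. The part of such reads in the r of this pair was not tested. Without control mouse 10684 the pairs among *Fasn*, *Acaca* and *Acly* gave 0.94 to 1.00 and the pairs with the desaturases 0.34 to 0.59. The pairs with the desaturases gave other values within each group. In the 4 control mice *Scd2* gave 0.91, 0.90 and 0.81 with *Fasn*, *Acaca* and *Acly* and *Scd1* gave 0.63, 0.60 and 0.39, while in the 4 Ox1RΔSERT mice these 6 pairs gave -0.29 to 0.04. The pairs among *Fasn*, *Acaca* and *Acly* gave 0.96 to 1.00 in control mice and 0.97 to 1.00 in Ox1RΔSERT mice. *Mlxipl* was closest to *Me1* (0.91) and *Acaca* (0.85) and *Thrsp* to *Acly* (0.84) and *Acaca* (0.84). *Srebf1* was closest to *Acly* (0.74) over all mice but to *Scd1* (0.90, against 0.71 with *Acly*) without control mouse 10684, and with *Acly* it gave 0.98 in control mice and -0.37 in Ox1RΔSERT mice. *Acacb* gave -0.28 with *Scd1* and -0.29 with *Scd2*, and 0.77 with *Thrsp*. These correlations are descriptions over 8 mice, or over 4 mice within a group, and no difference between them was tested, and the values of a mouse share 1 library and 1 scaling factor.

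**Figure D3:**
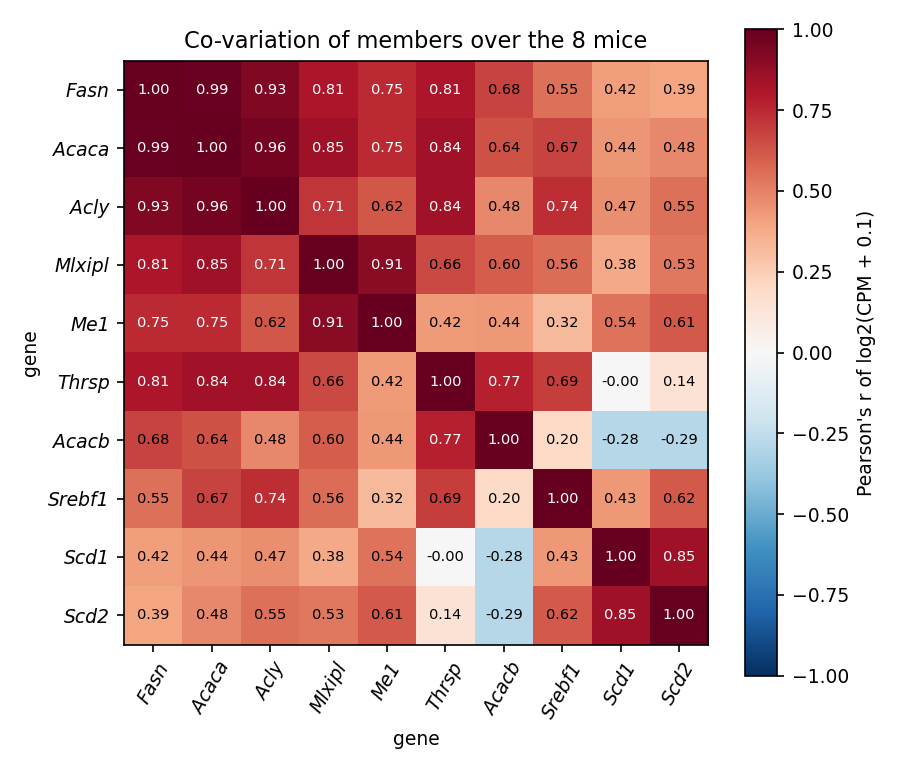
Pearson's r between each pair of the 10 genes over the 8 mice, from log2(CPM + 0.1), on a colour scale from -1 to 1. The darkest block holds *Fasn*, *Acaca* and *Acly* (0.93 to 0.99), and *Scd1* and *Scd2* form a pair (0.85) with values of 0.39 to 0.55 against that block. *Mlxipl* and *Me1* give 0.91.

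**Figure D4:**
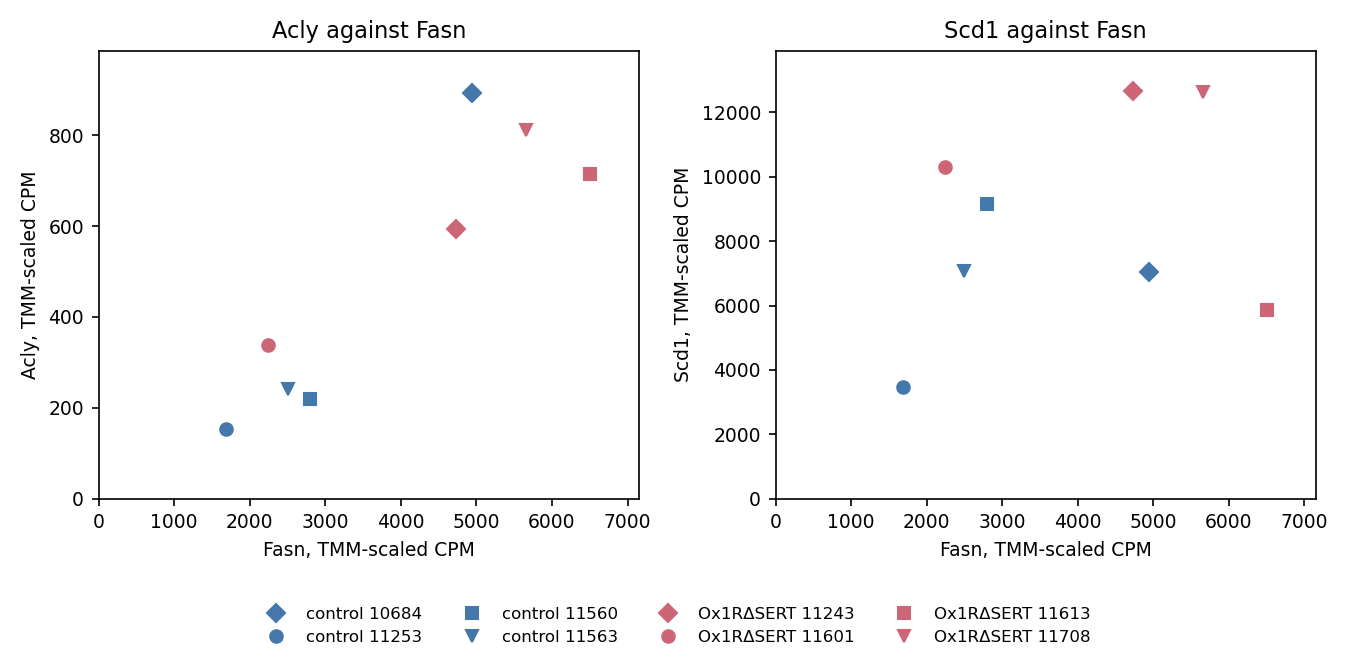
TMM-scaled CPM of *Acly* (left) and *Scd1* (right) against *Fasn*, 1 symbol per mouse, control mice in blue and Ox1RΔSERT mice in red, all axes from 0. In the left panel control mouse 10684 lies within the range of the Ox1RΔSERT mice for *Fasn* and above all of them for *Acly*. Mouse 11613, with the highest *Fasn*, has the lowest *Scd1* of the Ox1RΔSERT mice in the right panel.

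Ratios between genes of a mouse do not depend on the scaling between mice, and 3 were compared in TPM. The ratio of *Acacb* to *Acaca*, the ACC2 and ACC1 genes, was 0.860, 2.46, 1.49 and 1.37 in control mice and 1.07, 1.14, 1.03 and 0.815 in Ox1RΔSERT mice. All 4 Ox1RΔSERT mice lay below 3 of the control mice and around control mouse 10684, with a log2 difference of -0.52 (exact permutation p = 0.143, adjusted over the 3 ratios 0.257). The log2 ratio of *Scd2* to *Scd1*, paralogs whose shared reads Salmon divides, differed by -0.35 (exact permutation p = 0.171, adjusted 0.257). That of *Mlxipl* to *Srebf1* differed by -0.09 (exact permutation p = 0.83, the same when adjusted). None of the 3 ratios passed the test.

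The summed TPM of the 10 genes was 3501, 1290, 2625 and 2179 in control mice and 3710, 3704, 3828 and 5359 in Ox1RΔSERT mice, which is 0.129% to 0.536% of all TPM. The 4 Ox1RΔSERT mice lay above the 4 control mice, with means of 4150 ± 808 and 2399 ± 921, 73.0% higher in Ox1RΔSERT mice. TPM shares are set against all transcripts, and mitochondrially encoded genes took 57.0% to 66.9% of them. With TPM rescaled to the genes outside the mitochondrial genome, the sums were 9657, 3904, 7376 and 6078 in control mice and 10898, 8630, 8894 and 13382 in Ox1RΔSERT mice. On that scale the groups overlapped, since mice 11601 and 11613 lay below control mouse 10684, and the mean was 54.7% higher. *Scd1* was the largest part of the sum in every mouse, but its part differed between mice. In control mouse 10684 and Ox1RΔSERT mouse 11613, *Scd1* was at 1238 and 1288 TPM, *Fasn* at 895 and 1278 TPM and *Thrsp* at 778 and 680 TPM. No test was run on the sum because the genes were chosen with results known. In the fit on log2(TPM + 1), which lacks TMM scaling, the median of all tested genes was itself 0.23 higher in Ox1RΔSERT mice. In that fit *Scd1*, *Fasn*, *Acly* and *Acaca* had an unadjusted limma p under 0.05 (0.0197, 0.0445, 0.0444 and 0.0422), against 21% of all tested genes (20.7% higher), and the lowest adjusted p was 0.236. With log2(TPM + 0.1) the same 4 genes were counted, against 22.1%.

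The other genes of the pathway were counted in 6 lists of 45 genes, of which 42 were tested, with 0 called by edgeR (0% of all tested genes) and 0 by DESeq2 (1.75%). At an unadjusted p under 0.05, edgeR counted 2 of them higher (*Cpt1a* and *Txnip*) and 1 lower (*Mlx*) in Ox1RΔSERT mice, against 10.2% and 4.96% of all tested genes. Of the 42, 16 had a log2 fold change above 0 and 26 below it, with a median of -0.04 against 0.00 over all tested genes. The lists were chosen with earlier results of these data known.

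Carbon and NADPH supply was covered by 10 genes, all tested, with a median log2 fold change of -0.03 and none at an unadjusted p under 0.05. The lowest p values there were those of *Slc25a1*, the mitochondrial citrate carrier, at 119 ± 35.9 CPM in control mice and 167 ± 50.6 CPM in Ox1RΔSERT mice (log2 fold change 0.49, SE 0.28, edgeR adjusted p = 0.408), *Tkt*, transketolase of the pentose phosphate pathway (0.53, SE 0.31, edgeR adjusted p = 0.417), and *Acss2*, acetyl-CoA synthetase (0.41, SE 0.24, edgeR adjusted p = 0.427). The upstream citrate carrier and *Acly* thus had estimates of the same sign, and neither passed the test.

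Regulators of lipogenic transcription, 13 genes, had a median of -0.07. *Mlx*, the partner with which ChREBP binds DNA, was at 27.2, 24.1, 34.5 and 34.0 CPM in control mice and 23.7, 19.2, 21.4 and 21.3 CPM in Ox1RΔSERT mice. It was the only gene of the 42 whose groups did not overlap, although the gap between 24.1 and 23.7 CPM was small, and 2.81% of all tested genes did not overlap and were lower. Its log2 fold change was -0.48 (SE 0.13), with an unadjusted edgeR p of 0.00591, an adjusted p of 0.316, a DESeq2 adjusted p of 0.0743 and an exact permutation p of 0.0286, the smallest that test can give. Its exons share 385 bases (19.3%) with *Psmc3ip* on the opposite strand. *Nr1h3*, the gene of the liver X receptor LXRα that induces *Srebf1*, had a log2 fold change of -0.30 (SE 0.14, edgeR adjusted p = 0.352), and *Insig2*, which retains SREBP in the endoplasmic reticulum, -0.18 (SE 0.10, edgeR adjusted p = 0.419).

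Elongation and desaturation after palmitate was covered by 7 genes, of which *Scd3* and *Scd4* were too low to test, at 0.329 CPM or less. The other 5 had a median of 0.56 and none had an unadjusted edgeR p under 0.05. Of these, 3 had a log2 fold change above 0 and 2 below it. *Elovl6*, with the highest CPM of them, was at 375 ± 89.1 CPM in control mice and 323 ± 56.9 CPM in Ox1RΔSERT mice (log2 fold change -0.21, SE 0.20, edgeR adjusted p = 0.601). The elongase gene *Elovl3*, counted with the brown adipocyte markers and not in this list, was at -1.07 (SE 0.31, edgeR adjusted p = 0.316, DESeq2 adjusted p = 0.0406). *Elovl1*, an elongase of long fatty acids, was at 7.16 ± 1.20 and 10.9 ± 4.45 CPM (log2 fold change 0.60, SE 0.28, edgeR adjusted p = 0.346), and the front-end desaturases *Fads1* and *Fads2* were at 0.56 (SE 0.33) and 0.60 (SE 0.48). *Fads1* was at 10.3 CPM in mouse 11708 against 3.40 to 5.25 CPM in all other mice. *Fads2* was at 4.98 CPM in mouse 11708 against 0.706 to 2.38 CPM, so the estimates of both rest largely on that mouse. *Elovl1* was highest in mice 11601 (16.1 CPM) and 11708 (13.0 CPM), the libraries with the most leukocyte and fibroblast marker RNA, and the part of these cells in it was not tested.

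The 8 genes that act against malonyl-CoA, AMP-activated kinase subunits, *Stk11* and *Mlycd*, had a median of -0.13, again with none at an unadjusted edgeR p under 0.05. *Prkab2*, a regulatory subunit of the kinase, was at 0.61 (SE 0.32, edgeR adjusted p = 0.371), *Mlycd*, malonyl-CoA decarboxylase, at -0.34 (SE 0.18, edgeR adjusted p = 0.392) and *Prkaa1*, a catalytic subunit, at -0.13 (SE 0.10, edgeR adjusted p = 0.539) on the log2 scale. The targets of malonyl-CoA are the carnitine palmitoyltransferases. *Cpt1b*, the muscle and brown fat form, was at 870 ± 70.8 CPM in control mice and 776 ± 164 CPM in Ox1RΔSERT mice (log2 fold change -0.16, SE 0.16), and 81.4% of its exon bases are shared with *Gm44502* on the same strand, so its level is uncertain. *Cpt1a*, the liver form, was at 12.1, 14.8, 12.1 and 11.6 CPM in control mice and 12.3, 25.2, 13.1 and 29.7 CPM in Ox1RΔSERT mice (log2 fold change 0.67, SE 0.29, edgeR adjusted p = 0.326). Only mice 11601 and 11708 lay above the control range of *Cpt1a*, the same libraries in which leukocyte, fibroblast and, for 11708, hepatocyte markers were high, and the part of those cells was not tested.

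Glucose entry and ChREBP-responsive genes, 4 of 5 tested, had a median of 0.05. *Txnip*, which is induced by glucose through ChREBP and its relative MondoA, was at 695, 636, 770 and 587 CPM in control mice and 1127, 753, 1066 and 758 CPM in Ox1RΔSERT mice. Mice 11243 and 11613 exceeded every control mouse and the others lay just under the highest, with a log2 fold change of 0.46 (SE 0.17, edgeR adjusted p = 0.316). *Txnip* shares 606 exon bases (19.4%) with *Gm15441* on the opposite strand. *Slc2a4*, the insulin-responsive glucose transporter GLUT4, was at 290 ± 56.7 and 216 ± 56.0 CPM (log2 fold change -0.42, SE 0.22, edgeR adjusted p = 0.366), and *Arrdc4*, another ChREBP target, at a log2 fold change of 0.13 (SE 0.26).

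**Figure D5:**
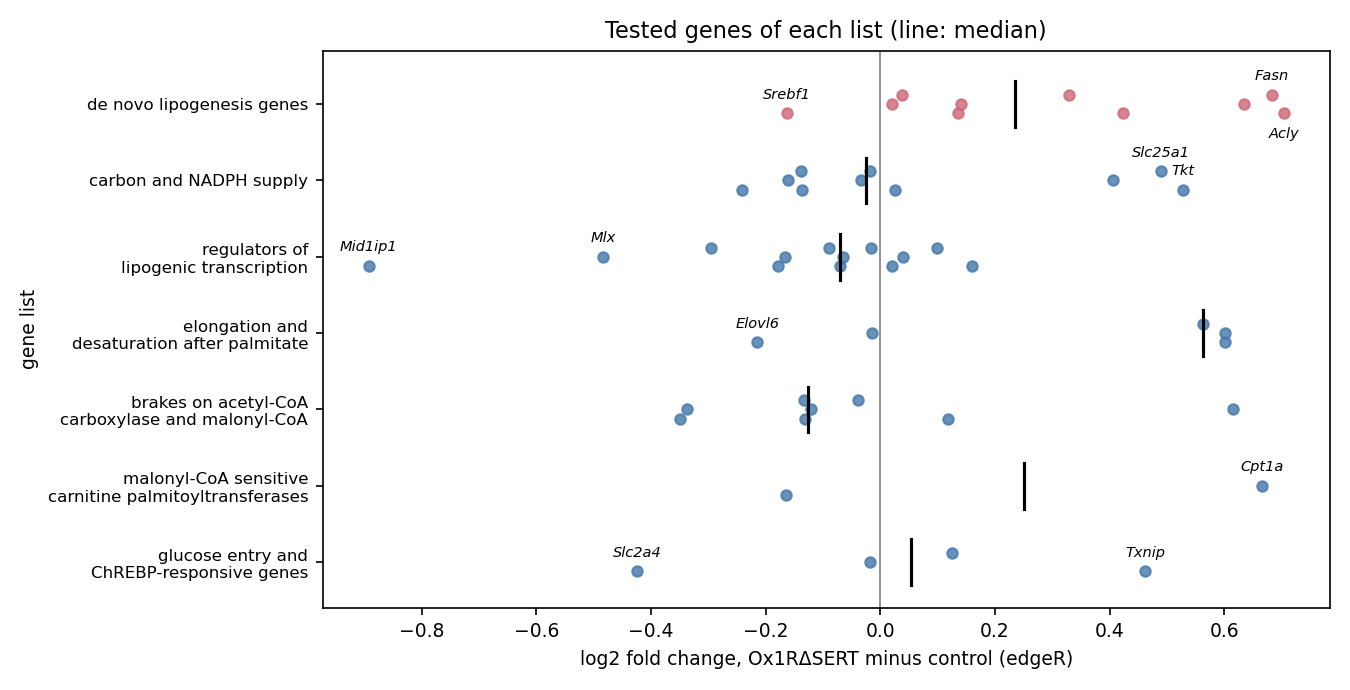
Log2 fold change (Ox1RΔSERT minus control, edgeR) of the tested genes of each list, 1 point per gene, with the list's median as a vertical line and the 10 lipogenesis genes in red. The median of the 10 genes is 0.23, and those of elongation and desaturation and of the carnitine palmitoyltransferases lie higher at 0.56 and 0.25. That of elongation and desaturation is the value of *Fads1*, the middle of 5 genes, of which 3 lie above 0 and 2 below it. That of the carnitine palmitoyltransferases is the median of only 2 genes of opposite sign, *Cpt1a* at 0.67 and *Cpt1b* at -0.16. The medians of glucose entry, carbon supply, regulators and brakes lie lower at 0.05, -0.03, -0.07 and -0.13.

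The genes most like the 10 in their pattern over the mice were found by Pearson's r between log2(CPM + 0.1) and the mean of the 10 standardized profiles, among 7351 other tested genes with a mean CPM of at least 10. The 5 closest were *Deptor* (r = 0.97), *Ano1* (0.96), *Ntrk3* (0.95), *Pank4* (0.94) and *Inpp5e* (0.93), over 8 mice, and 10 of the candidates exceeded 0.9. These are the highest of 7351 correlations over only 8 mice. How many would exceed 0.9 by chance was not tested, so no link to the 10 genes is read from them. *Deptor*, an inhibitor of mTOR, varied between 199.8 and 356 CPM and did not differ between the groups beyond its spread (log2 fold change 0.15, SE 0.18, edgeR adjusted p = 0.691). None of the other 4 passed the edgeR test either.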

How the data were processed

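BAT of 4 control and 4 Ox1RΔSERT mice was studied by mRNA sequencing of poly-A selected, stranded libraries. The authors quantified genes with Salmon 0.14.1 in an nf-core/rnaseq pipeline against GRCm38. Per the labels the build was GRCm38.p6 and STAR and DESeq2 1.26.0 were also used. The annotation release, trimming and the strand setting are not given in the sources used here. The authors deposited estimated counts, not normalized, and TPM values, which they normalized for transcript length and library size. No column of per-sample values was left unused.

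Symbols and positions came from GENCODE M21 (GRCm38), which gave a symbol for 98.8% of 44674 gene identifiers. Estimated counts were rounded and fitted over the whole table with edgeR 4.0.16 (filterByExpr, TMM, quasi-likelihood test, two-sided, R 4.3.3), adjusted by Benjamini-Hochberg, threshold 0.05. Intervals at the 95% level used edgeR's total degrees of freedom, which add prior degrees of freedom to the residual ones. Exact permutation tests covered 70 assignments of 4 mice against 4. Counting error is small beside the spread between mice. The p-values set the difference between the groups against the spread between single mice, each 1 library. Promoter windows are from RefSeq on GRCm38.p6, and those of *Scd1* and *Scd2* were not analysed here.

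Alternatives were DESeq2 1.42.0, scaling by RLE, by upper quartiles or by library size, leaving out the mitochondrial genome, other filters on low counts (none, or at least 10 counts in every mouse), limma 3.58.1 as voom and as limma-trend on log2 TPM with a pseudocount of 1 or 0.1, a threshold of 0.1, and mice left out singly or, for 11601 and 11708, together. DESeq2 with mice left out and the overlap without control mouse 10684 were added after the data had been seen. A planned permutation test of the summed TPM was not run. The scripts were tested on simulated counts.

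The 10 genes, the lists and the rule for named genes were chosen with earlier results of these data known. The rule named all 10 genes, up to 3 genes per other list with the lowest p, any whose groups did not overlap, and the 5 most similar genes. Brown adipocyte markers and *Elovl6* were named after their values were seen.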

Additional observations from a re-analysis of the deposited data

Results flagged for a closer look

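Values of single mice that stood apart from the other 3 mice of their group by Dixon's test were found in 5 of 28 groups of 4 examined, where chance gives about 1 in 20 for independent groups. These groups are not independent. They come from the same mice and from genes that varied together, and the ratios and the sum are built from those genes. Among control mice, 7.50% of all tested genes passed the same limit. Control mouse 10684 stood above the other control mice for *Acly* (893 CPM), *Srebf1* (224 CPM) and *Thrsp* (1238 CPM). Control mouse 11253 stood below them for *Me1* (183 CPM). Ox1RΔSERT mouse 11708 stood above the other Ox1RΔSERT mice for the summed TPM of the 10 genes (5359). It was also the library with the highest hepatocyte and skeletal muscle marker RNA. The causes were not tested.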

How the results depend on the processing

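No paired analysis was possible because the labels give mouse numbers that differ between the groups. DESeq2 called 265 genes in place of 0, and 17 to 1516 with 1 mouse left out, the highest without Ox1RΔSERT mouse 11243 and the lowest without 11601 or control mouse 11560. The number of the 10 genes called was 0 to 1 in fits without 1 mouse, the call being *Acly* in DESeq2 without control mouse 10684, and that of the other lists was 0 to 3. An adjusted p under 0.1 added no call of the 10 genes in the fit over all mice. The median of the other lists was 0.16 with library size scaling, 0.27 on log2(TPM + 1) and 0.29 on log2(TPM + 0.1), where the median of all genes was 0.22, 0.23 and 0.32. The log2 fold change of *Srebf1* was 0.015 with library size scaling, 0.16 in voom, 0.46 on log2(TPM + 1) and 0.49 on log2(TPM + 0.1), in place of -0.16. *Scd2* was at -0.019 without mice 11601 and 11708, and *Mlxipl* at -0.0011 with no filter. With 1 mouse left out, in edgeR or DESeq2, the ranges were -0.15 to 0.18 for *Acacb*, -0.013 to 0.29 for *Me1*, -0.43 to 0.66 for *Srebf1*, -0.14 to 0.19 for *Mlxipl*, -0.15 to 0.93 for *Thrsp* and -0.44 to 0.12 for the log2 ratio of *Mlxipl* to *Srebf1*. *Fasn* (0.48 to 1.04), *Acaca* (0.22 to 0.78), *Acly* (0.43 to 1.58) and *Scd1* (0.40 to 0.83) kept their sign. The cause of these shifts was not tested.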

Other observations

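*Pnpla3*, a lipase gene induced by ChREBP and SREBP-1c, showed the pattern of *Srebf1* and *Thrsp* in control mice and was singled out after its values were seen. It was at 260 CPM in control mouse 10684 against 53.2 to 59.5 CPM in the other control mice, and at 118, 55.4, 113 and 137 CPM in Ox1RΔSERT mice, with a log2 fold change of -0.02 (SE 0.55, edgeR adjusted p = 0.992). *Mid1ip1*, which encodes a partner of Spot 14, was likewise at 66.7 CPM in control mouse 10684 against 10.9 to 29.8 CPM in the other control mice and 10.3 to 21.3 CPM in Ox1RΔSERT mice. Its exons share 25.5% of their bases with *Gm14493* on the opposite strand.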
